A study of Mus musculus with 6 samples.

Results

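TRAIL, the product of Tnfsf10, and the receptors that bind it in the mouse were followed on 6 one-colour arrays. The 5 genes, Tnfsf10, Tnfrsf10b, Tnfrsf11b, Tnfrsf22 and Tnfrsf23, were taken by symbol, not by any measured value, from 19938 genes named on the arrays. Each is read by 1 probe set out of 21789 that carry a single gene symbol. The first group is 3 arrays of aorta from Trail-/- mice supplied by Amgen, and the second is 3 arrays of aorta from wild-type C57Bl6/J mice. All mice were 6 weeks old and untreated as far as the labels say, and the knockout samples are also labelled with the strain C57Bl6/J. The labels give neither which exons the knockout lacks nor a driver that would limit it to some cells, and they do not say whether tissue of several animals was pooled.

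TRAIL is a death ligand carried on the surface of immune cells, and interferons are well-known inducers of its gene. In the mouse it kills through the only death receptor it has there, encoded by Tnfrsf10b. Tnfrsf22 and Tnfrsf23 encode membrane decoy receptors that bind the ligand without a working death domain, and Tnfrsf11b encodes osteoprotegerin, a secreted decoy that also captures RANK ligand and is known in the vessel wall as a brake on calcification.

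No receptor differed detectably between the genotypes, and the ligand was high on a single wild-type array. None of the 5 genes passed the limma test at an adjusted p under 0.05 with all 6 arrays or without wild type 1, and 0 of 21789 probe sets passed in either fit (0.0% called). At an unadjusted p under 0.05, 273 probe sets stood on 6 arrays (144 higher and 129 lower in the knockout) and 367 without wild type 1 (160 higher and 207 lower), with none of the 5 genes among them. The 2 groups overlapped for every one of the 5 genes. Over all genes, 2.81% did not overlap with the knockout higher and 3.5% with the knockout lower.

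The arrays differed in markers of tissues other than aorta, which bears on every comparison here. The array labelled wild type 1 stood over 1 log2 unit (2-fold) above every other array for 944 genes (4.73%) and as far below every other for 945 genes (4.74%). Its Pearson correlation with each other array, computed over probe sets as a description, was 0.887 to 0.897, against 0.970 to 0.996 among the other 5 arrays. Smooth muscle actin, Acta2, read 12.27 to 12.63 in knockout and 12.39 to 12.62 in wild-type samples on the log2 scale. This smooth muscle marker was present throughout, but it does not show how much aorta each array held. The list of 8 smooth muscle genes had a median of 9.34 on wild type 1 and 10.37 to 11.10 on the other arrays. Gene by gene the gap was smaller, with a median of -0.10 between wild type 1 and the mean of the other arrays. Wild type 1 was the highest array for 2 of the 8, and 1 of the 8 lay over 1 log2 unit below every other array there. Acta1, the actin of skeletal muscle, read 7.28 on wild type 1 and 13.00 to 13.25 elsewhere. Squamous epithelial genes had a list median of 5.01 on wild type 1 and 11.25 to 11.65 elsewhere. The 5 arrays left without wild type 1 thus carried strong signal of both of these tissues. The knockout 2 array alone carried stomach genes at a list median of 12.43, with 7.27 on wild type 3, and knockout 1 carried lung genes at 8.13. Differences from the main fit, and median differences of lists, are therefore given with and without wild type 1 where they are printed. The labels do not say which samples came from separate animals, so p-values measure only the spread between these 6 samples.

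The promoter of Tnfsf10 is shown because the ligand was high on the same array as many interferon genes, as described further on, beside those of Psmb8 and Gbp3, which had among the most similar profiles and, unlike the other matched promoters of such genes, held motif matches. The sequences are RefSeq's on GRCm38.p6, 250 bases before to 50 after the start of each gene, on the plus strand of chr3:27316827-27317126 for Tnfsf10, chr17:34197945-34198244 for Psmb8 and chr3:142559794-142560093 for the upstream of 2 listed starts of Gbp3. Capitals mark matches to the interferon-stimulated response element core GAAANNGAA, the gamma-activated site TTCNNNGAA or the TATA box TATAAA, searched on both strands, so that some capitals spell a reverse complement.
Tnfsf10: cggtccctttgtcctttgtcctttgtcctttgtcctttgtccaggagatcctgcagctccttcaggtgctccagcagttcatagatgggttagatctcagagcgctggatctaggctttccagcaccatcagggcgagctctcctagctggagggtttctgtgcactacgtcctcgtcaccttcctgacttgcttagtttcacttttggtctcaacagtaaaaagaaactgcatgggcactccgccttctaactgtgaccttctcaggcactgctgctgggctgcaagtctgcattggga
Psmb8: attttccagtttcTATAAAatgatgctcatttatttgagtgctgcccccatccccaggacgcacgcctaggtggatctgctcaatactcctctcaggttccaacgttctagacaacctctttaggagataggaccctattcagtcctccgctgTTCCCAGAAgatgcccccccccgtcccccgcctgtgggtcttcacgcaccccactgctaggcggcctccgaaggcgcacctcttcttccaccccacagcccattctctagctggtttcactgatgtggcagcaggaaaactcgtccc
Gbp3: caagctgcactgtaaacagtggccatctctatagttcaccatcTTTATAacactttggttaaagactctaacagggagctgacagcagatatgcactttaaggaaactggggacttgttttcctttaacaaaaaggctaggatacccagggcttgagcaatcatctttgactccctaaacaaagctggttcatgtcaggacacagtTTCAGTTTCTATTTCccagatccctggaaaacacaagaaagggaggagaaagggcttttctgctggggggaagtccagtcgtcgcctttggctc

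None of the 3 motifs was found in this window of Tnfsf10, nor in those of Letmd1 and Dbh, which were also among the 5 genes with the closest profiles, nor at the second start of Gbp3. Apol6, also among those with the closest profiles, had no promoter sequence to search. Gbp3 held the response element core at 2 overlapping places, at positions -44 to -36 and -38 to -30 from its start, and a TATA box match further up. Psmb8 held a gamma-activated site match, which reads the same pattern on both strands, at positions -97 to -89 from its start, and a TATA box match. Of all 32851 promoters in the table, 8.56% held the response element core, 8.3% the gamma-activated site and 13.62% the TATA box. Of 13 interferon-stimulated genes of the list used below with a promoter in the table, 10 held the response element core, 3 the gamma-activated site and 3 the TATA box in at least 1 promoter, a count per gene where the shares above are per promoter. The table held 2 of the 5 genes, and in the other, Tnfrsf23, the only match was a TATA box on the reverse strand, at positions -158 to -153. These matches describe letters in a window and no binding was measured.

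The ligand gene Tnfsf10 read 5.02, 4.48 and 4.09 on the log2 scale in knockout 1, 2 and 3, against 8.42, 4.90 and 4.85 in wild type 1, 2 and 3. Wild type 1 was high alone, 3.40 log2 units (10.6-fold) above the next array on the deposited scale, and the knockout arrays lay on both sides of the remaining wild-type arrays, knockout 1 above and knockout 2 and 3 below them. Only 37 of 19938 genes stood further above the rest on wild type 1. The group means were 4.53 ± 0.47 in the knockout and 6.06 ± 2.05 in the wild type (SD, n = 3 each). The difference was -1.53 (SE 0.98, 95% interval -3.91 to 0.86, limma adjusted p = 0.946), a 2.88-fold lower mean signal in the knockout that the spread of the arrays does not separate from 0. The size of these folds depends on how dim signals are treated, since the other arrays lie below the array medians and no detection call was used, and a pseudocount of 64 brings the difference to -0.80.

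Without wild type 1 the difference in Tnfsf10 was -0.35 (SE 0.25, 95% interval -0.95 to 0.25, limma adjusted p = 0.999). The remaining value turned on which knockout array was kept. On those 5 arrays it was -0.59 (SE 0.17, 95% interval -1.01 to -0.18, limma adjusted p = 1.00) when knockout 1 was also left out and -0.12 (SE 0.20, limma adjusted p = 0.868) when knockout 3 was. Knockout 3 alone was also set against wild type 2 and 3, without knockout 1, highest in lung genes, and knockout 2, highest in stomach genes. Wild type 3, which was kept, had a stomach list median of 7.27, against 5.10 on knockout 3 and 4.93 on wild type 2. The difference was -0.79 (SE 0.22, 95% interval -1.24 to -0.34). This comparison was chosen after seeing the data and assumes that the lone array varies like the others. Both of these intervals lie below 0 for the single gene, and neither value passed the test over all probe sets. The probe set is dim, with only 29.6% of probe sets having a lower mean. The labels do not give the part of the gene that the knockout lacks, so whether this probe set lies within it is not known and its signal is not a test of the genotype.

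**Figure D1:**
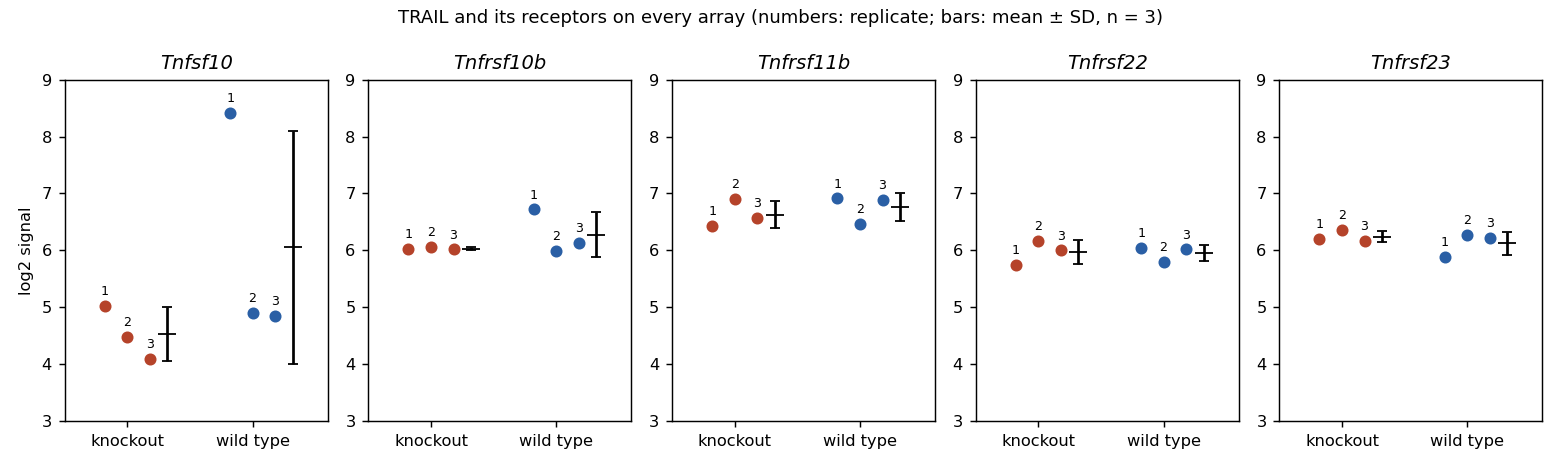
Log2 signal of the 5 genes on each array, with knockout samples left of wild-type samples in each panel, replicate numbers above the points and the mean ± SD of 3 arrays beside them. Tnfsf10 reaches 8.42 on wild type 1 and at most 5.02 elsewhere, while the receptors vary by less than 1 log2 unit.

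The death receptor gene Tnfrsf10b read 6.02, 6.06 and 6.01 in the knockout samples, against 6.72, 5.98 and 6.12 in the wild-type samples. The 5 arrays other than wild type 1 lay within 0.14 log2 units of each other (SD 0.05), and wild type 1 stood 0.59 (1.51-fold) above the highest of them. A gap at least that wide is not rare on this array, since 1816 genes stood further above the rest. The difference was -0.24 (SE 0.21, 95% interval -0.74 to 0.26, limma adjusted p = 0.946). Without wild type 1 it was -0.02 (SE 0.13, 95% interval -0.33 to 0.28, limma adjusted p = 0.999), so that the interval runs from a signal 0.798 times to 1.22 times that of the wild type.

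The secreted decoy gene Tnfrsf11b, osteoprotegerin, read 6.42, 6.90 and 6.56 in the knockout samples, against 6.91, 6.47 and 6.88 in the wild-type samples. Both groups held low and high arrays, and the spread within each was the same size (means 6.63 ± 0.24 in the knockout and 6.75 ± 0.25 in the wild type, SD, n = 3 each). The difference was -0.13 (SE 0.19, 95% interval -0.59 to 0.33, limma adjusted p = 0.946), and without wild type 1 it was -0.05 (SE 0.19, 95% interval -0.50 to 0.41).

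The decoy receptor gene Tnfrsf22 read 5.74, 6.16 and 6.00 in the knockout samples, against 6.05, 5.80 and 6.02 in the wild-type samples. Knockout 2, wild type 1 and wild type 3 were its 3 highest arrays and knockout 1 and wild type 2 its lowest, which is also how Tnfrsf11b fell. Knockout 2 and wild type 3 were also the arrays with the most stomach signal, while wild type 1, at a stomach list median of 5.15, was not, and the part of that tissue in either gene was not tested. The difference in Tnfrsf22 was 0.01 (SE 0.15, 95% interval -0.35 to 0.38, limma adjusted p = 0.987), and its sign changed with the scaling between arrays. Without wild type 1 it was 0.06 (SE 0.17, 95% interval -0.34 to 0.46).

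The other decoy receptor gene, Tnfrsf23, read 6.20, 6.36 and 6.17 in the knockout samples, against 5.88, 6.27 and 6.21 in the wild-type samples. It ran against the other genes on wild type 1, which was its lowest array by 0.29 log2 units, and the other 5 arrays lay within 0.19 of each other. The difference was 0.12 (SE 0.14, 95% interval -0.23 to 0.47, limma adjusted p = 0.946) and shrank to 0.002 (SE 0.13, 95% interval -0.31 to 0.31) without wild type 1. Tnfrsf22 and Tnfrsf23 lie next to each other on chromosome 7 in GRCm38.p6, with Tnfrsf26, a further receptor of the family, on the other side of Tnfrsf22. Tnfrsf26 read 4.63, 4.38 and 4.29 in the knockout samples and 4.49, 4.48 and 4.45 in the wild-type samples. How far probes of these related neighbours can read each other's transcripts was not tested.

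Across the 5 genes, wild type 1 was the highest array for 3 (Tnfsf10, Tnfrsf10b and Tnfrsf11b, the last by 0.02) and the lowest for 1 (Tnfrsf23), where it was highest for 33.4% and lowest for 24.6% of all genes. It was over 1 log2 unit above every other array for 1 of the 5, Tnfsf10. The intervals of the 4 receptor genes without wild type 1 reach from -0.50 to 0.46 log2 units at their widest, and a p above the threshold does not show that the genotypes were alike. In whole tissue, fewer cells of a type and less RNA per cell cannot be told apart.

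**Figure D2:**
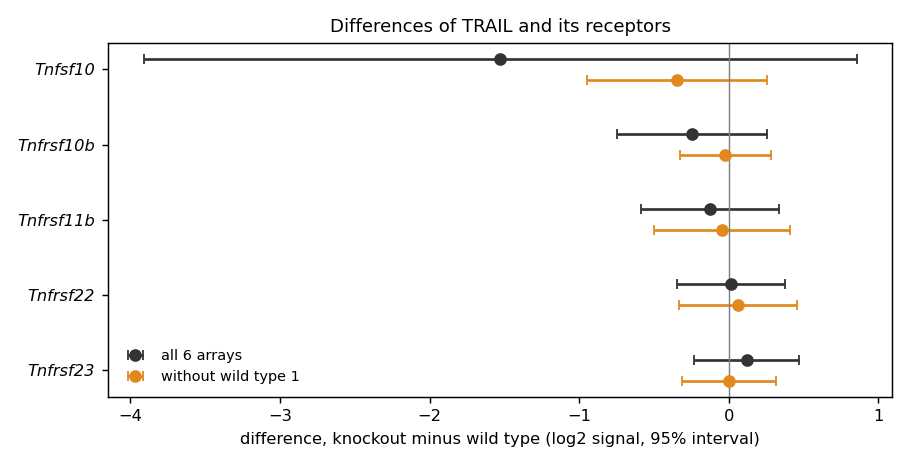
Difference between knockout and wild type in log2 signal for each gene, with 95% intervals from limma, on all 6 arrays (dark) and without wild type 1 (orange). Every interval includes 0, and that of Tnfsf10 narrows to -0.95 to 0.25 without wild type 1.

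Genes downstream of the death receptor, counted together with RANK ligand and its receptor RANK, did not pass the test either. Of these 21 measured genes, 0 were called on 6 or on 5 arrays. Across these 21 genes, 6 were higher and 15 lower in the knockout on 6 arrays, and 11 were higher and 10 lower without wild type 1, against 9927 higher and 10011 lower (median difference -0.0008) over all genes on 6 arrays and 10595 higher and 9343 lower (median 0.011) without wild type 1.

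In the death-inducing complex that assembles on the receptor, 4 of 5 genes were lower (median -0.10) and 3 of 5 without wild type 1 (median -0.04). The gene with the lowest unadjusted p was Tradd, an adaptor, at 0.12 (SE 0.12), or 0.10 (SE 0.14) without wild type 1. Casp8, the initiator caspase, read 7.58, 7.89 and 7.85 in the knockout samples, against 8.01, 7.99 and 7.63 in the wild-type samples. Cflar, which blocks caspase-8, read 8.45, 8.49 and 8.39 in the knockout samples and 9.13, 8.51 and 8.13 in the wild-type samples. Both groups overlapped for each of these 3 genes.

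In the mitochondrial arm, through which the receptor's signal is amplified, 7 of 7 genes were lower (median -0.22), and wild type 1 was the highest array for 7 of 7. Without wild type 1, 5 of 7 were lower (median -0.09). Diablo, which relieves the block on caspases, read 6.50, 6.52 and 6.66 in the knockout samples, against 7.19, 6.94 and 6.72 in the wild-type samples, and was the only one of the 21 genes whose groups did not overlap. Over all genes, 3.5% did not overlap with the knockout lower and 2.81% with the knockout higher. The difference in Diablo was -0.39 (SE 0.15, limma adjusted p = 0.946), and -0.27 (SE 0.14) without wild type 1. Cycs, cytochrome c, read 10.27, 10.80 and 10.96 in the knockout samples, against 12.12, 10.68 and 10.85 in the wild-type samples. It was the 1 gene of the 21 that stood over 1 log2 unit above every other array on wild type 1, where brown fat genes were also high at a list median of 9.60, and the part of that tissue in Cycs was not tested.

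Casp6, an executioner caspase, read 6.64, 8.44 and 6.72 in the knockout samples, against 7.39, 6.72 and 6.72 in the wild-type samples. Its difference was 0.32 (SE 0.51), or 0.55 (SE 0.50) without wild type 1. Its high value fell on knockout 2, the array with stomach genes, and the part of that tissue was not tested. Among 6 inhibitors of cell death, 3 were higher and 3 lower (median -0.06), and without wild type 1 the median changed sign, with 4 higher and 2 lower (median 0.06). Mcl1, a survival protein of the Bcl-2 family, had the lowest unadjusted p of these, with a difference of -0.19 (SE 0.16), or -0.31 (SE 0.11) without wild type 1. Of the partners of osteoprotegerin, Tnfsf11, RANK ligand, read 7.15, 6.95 and 6.57 in the knockout samples and 7.05, 6.71 and 7.06 in the wild-type samples. Tnfrsf11a, its receptor RANK, differed by 0.13 (SE 0.13), or 0.18 (SE 0.15) without wild type 1.

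Genes of pathways known to raise the ligand or its death receptor were set beside them. Many of these genes are readouts of the pathway and not regulators of either gene. Interferon-stimulated genes were over 1 log2 unit above every other array on wild type 1 for 13 of 15 genes, and genes of interferon signalling for 4 of 10, against 4.73% of all genes. Their list medians were 6.03 to 6.24 in the knockout samples and 5.80 to 8.12 in the wild-type samples for the stimulated genes, with the top value on wild type 1 and 6.46 on wild type 2. On 6 arrays 14 of 15 stimulated genes (median -0.75) and 9 of 10 signalling genes (median -0.25) were lower in the knockout. Without wild type 1 these were 7 of 15 (median 0.02) and 3 of 10 (median 0.05), and 0 genes of either list were called in either fit. Irf1, an interferon-induced transcription factor, read 7.03, 6.92 and 6.67 in the knockout samples, against 9.38, 6.50 and 6.52 in the wild-type samples. Rsad2, the antiviral protein viperin, read 5.79, 5.75 and 5.61 in the knockout samples, against 8.12, 5.84 and 5.45 in the wild-type samples.

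Of the signalling genes, Ifngr2, a chain of the interferon gamma receptor, was the only one whose groups did not overlap, higher in the knockout by 0.12 (SE 0.12), or 0.13 (SE 0.12) without wild type 1. Groups did not overlap in that direction for 2.81% of all genes. Usp18, which damps interferon signalling, had the lowest unadjusted p among the stimulated genes and differed by -0.72 (SE 0.38), or -0.29 (SE 0.17) without wild type 1. The interferon genes moved with Tnfsf10 on wild type 1, and their part in its signal was not tested.

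For the death receptor gene, targets of p53 and genes of endoplasmic reticulum stress were examined, since both pathways are known to raise it. Of the p53 targets, 6 of 7 were lower in the knockout (median -0.11), and 5 of 7 without wild type 1 (median -0.09), with Phlda3, an inhibitor of Akt signalling, at -0.52 (SE 0.29), or -0.29 (SE 0.23) without wild type 1. Of the stress genes, 5 of 7 were lower (median -0.09), and 6 of 7 without wild type 1 (median -0.17). Ddit3, the stress factor CHOP, read 7.04, 6.83 and 7.33 in the knockout samples, against 7.07, 7.37 and 7.35 in the wild-type samples. Atf3, a stress-induced transcription factor, read 6.99, 6.90 and 6.93 in the knockout samples, against 8.35, 7.53 and 7.22 in the wild-type samples. Its groups did not overlap, which was so with the knockout lower for 3.5% of all genes. The difference in Atf3 was -0.76 (SE 0.29, limma adjusted p = 0.946) on 6 arrays and -0.44 (SE 0.14) without wild type 1, and 0 genes of either list passed the test.

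**Figure D3:**
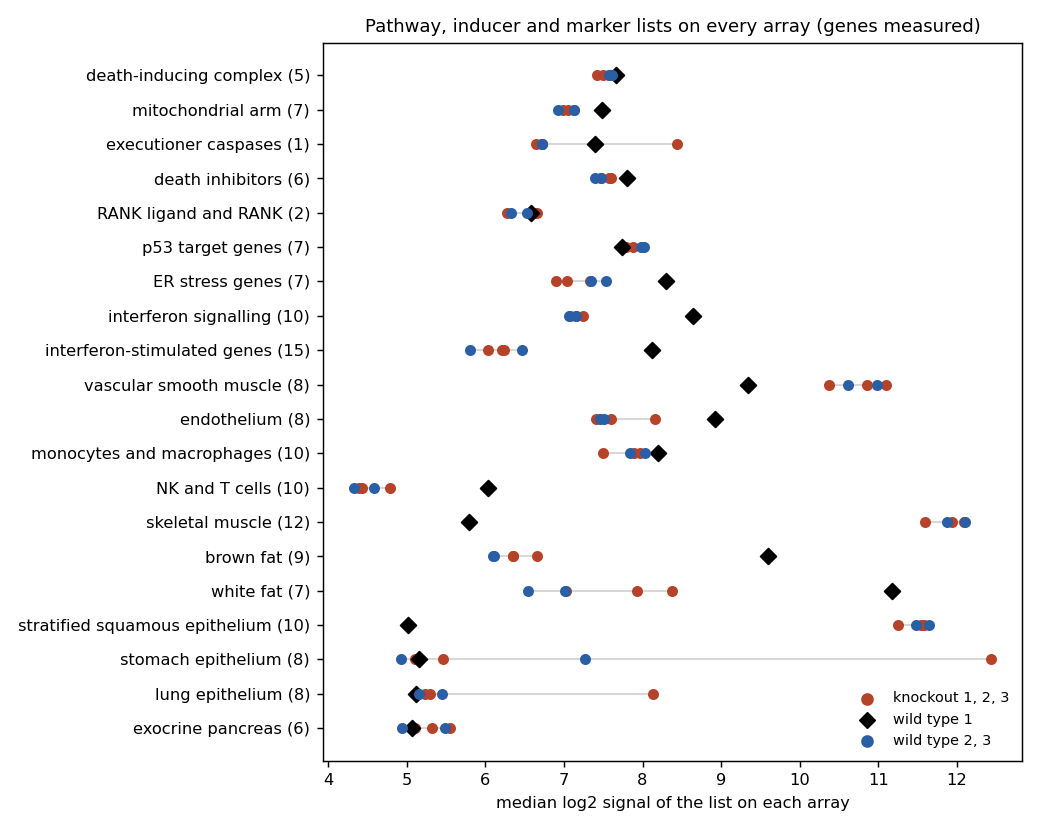
Median log2 signal of each gene list on every array, with the number of genes measured in brackets. From top to bottom stand downstream genes, RANK ligand and RANK, genes of inducing pathways and cell type markers. Wild type 1 (diamond) lies at 8.12 for interferon-stimulated genes, where the other 5 arrays reach at most 6.46, and at 5.79 for skeletal muscle, where they reach at least 11.60.

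Markers of cell types and tissues were read on the same arrays. Macrophage markers were over 1 log2 unit above every other array on wild type 1 for 0 of 10 genes, and the array was the highest for 8 of 10. Macrophages are among the cells that can carry the ligand. Their list median was 7.89, 7.50 and 7.96 in knockout 1, 2 and 3, against 8.19, 8.04 and 7.85 in wild type 1, 2 and 3. The lowest value fell on knockout 2, the array with stomach genes, and the part of that tissue was not tested. All 10 of 10 macrophage markers were lower in the knockout on 6 arrays (median -0.38) and without wild type 1 (median -0.24), and none was called. For 2 of the 10 the groups did not overlap, with the knockout lower, against 3.5% of all genes. Lyz2, lysozyme, the macrophage marker with the highest mean, read 11.09, 9.52 and 10.47 in the knockout samples and 10.45, 10.63 and 10.72 in the wild-type samples. NK and T cell markers were over 1 log2 unit above every other array on wild type 1 for 4 of 10 genes, with list medians of 4.39 to 4.79 in the knockout samples and 4.33 to 6.03 in the wild-type samples. Endothelial markers stood as far above on that array for 4 of 8 genes, brown fat markers for 7 of 9 and white fat markers for 7 of 7. Skeletal muscle markers lay as far below every other array there for 12 of 12, and squamous epithelial markers for 10 of 10. Their part in the Tnfsf10 signal was not tested.

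The 5 genes whose profile over the 6 arrays, less its mean, was closest to that of Tnfsf10 were Letmd1, a mitochondrial membrane protein gene, Psmb8, a subunit of the immunoproteasome, Dbh, the dopamine beta-hydroxylase gene, Apol6, and Gbp3, an interferon-induced GTPase. Their root mean square difference from Tnfsf10 was 0.25 to 0.29 log2 units. Each stood 3.20 to 3.75 log2 units above every other array on wild type 1, so that array sets the likeness. Psmb8, for example, read 6.75, 6.46 and 6.48 in the knockout samples, against 10.31, 6.51 and 6.52 in the wild-type samples. Without wild type 1 the range of Tnfsf10 was 0.93 log2 units, and no profile was matched there. The 4 receptor genes varied by 0.42 to 0.74 log2 units over 6 arrays and were not matched.

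**Figure D4:**
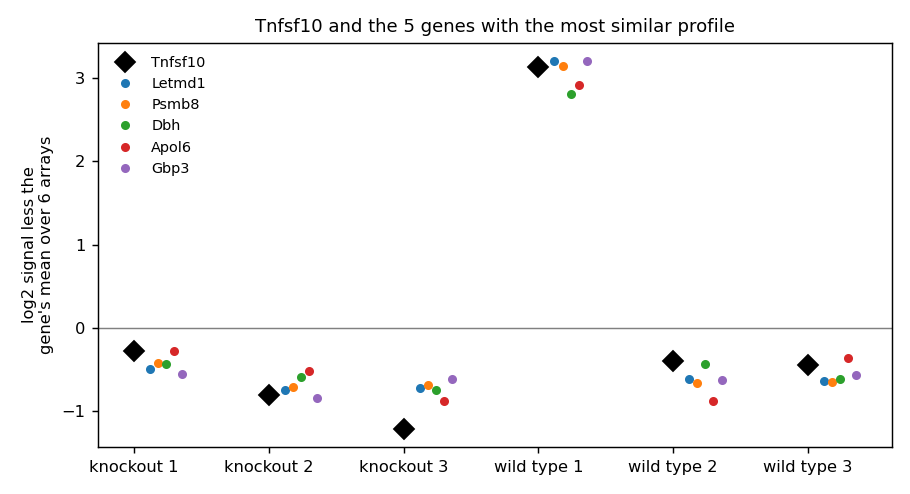
Log2 signal of Tnfsf10 (diamonds) and of the 5 genes with the closest profile (circles, offset sideways), each less its own mean over the 6 arrays, with knockout samples on the left. All 6 genes are highest on wild type 1, and Tnfsf10 varies by 0.93 log2 units on the other 5 arrays.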

How the data were processed

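Biotinylated cRNA from 6 ug of total RNA per sample was read on Affymetrix arrays with 1 colour, per the protocols in the labels. The deposited table holds log2 values, with the log base read from their range (1.55 to 13.96). The submitters' processing notes name MAS5, and the sources used here give no further step, so how arrays were scaled to each other is unknown. Values were used as deposited. No array file gave a detection call, and the number of arrays limits the precision.

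Of 35399 probe sets, the platform annotation names 21789 with 1 symbol (19938 genes), 1621 with several, which were not used, and leaves 11989 unlisted. Where a gene had several, the probe set of the highest mean was used. The 2 genotypes were fitted with limma 3.58.1 under R 4.3.3 (eBayes, trend on mean signal), p-values were adjusted over all 21789 by Benjamini-Hochberg, and no filter was set, because Tnfsf10 lies in the lowest 40% by mean signal, which the other 4 genes pass. None of the 5 passes a 60% filter. The fit was also run on simulated data with independent noise of equal spread on every array. That setting has no array as distinct as wild type 1, so it cannot show how the fit behaves with one.

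Groups and replicate numbers came from sample titles. The genes, the lists (156 genes analysed, 20 lists) and the naming rule were chosen with earlier results of these data known. Lists are described by counts and medians. The naming rule took, per downstream, RANK or inducing-pathway list, genes whose groups do not overlap or else the lowest unadjusted p. It also took the gene of the highest mean per marker list. Last, it took the 5 closest profiles of genes with a range of at least 1 log2 unit. Further genes named were chosen after their values were seen. Alternatives were quantile normalization, median centring, pseudocounts of 1 and 64, both filters, other moderation, array weights, a replicate block and leaving out each array.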

Additional observations from a re-analysis of the deposited data

How the results depend on the processing

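Over 114 runs of the 5 genes, none passed the threshold (limma adjusted p 0.666 to 1.00), and 99 kept the sign of the difference. Tnfsf10 was lower in the knockout in each of its runs, at -2.13 to -0.35 when 1 of the 6 arrays was left out, at -0.44 with array weights, at -0.80 with a pseudocount of 64, and at -0.59 to -0.12 when 1 more array was left out beside wild type 1. Tnfrsf10b and Tnfrsf11b kept their sign in the runs on 6 arrays. Tnfrsf22 turned to -0.064 with quantile normalization, -0.020 with median centring and -0.0055 with array weights, and ran from -0.082 to 0.13 when each array was left out. On the 5 arrays without wild type 1, leaving out each further array gave -0.093 to 0.049 for Tnfrsf10b, -0.25 to 0.16 for Tnfrsf11b, -0.047 to 0.17 for Tnfrsf22 and -0.058 to 0.038 for Tnfrsf23, and Tnfrsf23 was at -0.023 with quantile normalization. Knockout 3 against wild type 2 and 3, chosen after seeing the data, gave -0.071 for Tnfrsf23 and 5 called probe sets (Trdn higher, Alox15, Saa3, Prg4 and Snord14e lower, named after their values were seen), none of them of the 5 genes. Every other run called 0. Of 161 runs of list medians, 154 moved by less than the SD between arrays of a group and 7 did not. That SD includes wild type 1, so the count does not show that the medians held. Sign changes stand among the 154. Without wild type 1, the median of interferon-stimulated genes went from -0.75 to 0.02 and that of interferon signalling from -0.25 to 0.05. Among the 7, the medians with array weights were 0.10 for interferon-stimulated genes and 0.06 for the death-inducing complex, both above 0.

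The replicate block left the Tnfsf10 difference at -1.53 (SE 0.65, limma adjusted p = 0.982). Deviations of same-numbered samples correlated at 0.10, -0.21 and 0.13, so the numbers were not taken to pair the samples. Each gene has 1 probe set, so averaging probe sets changes nothing. Tnfsf10 has no value under a 40% filter, and none of the 5 has one under a 60% filter.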
